A study of Mus musculus with 6 samples.

Results

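The chemokine ligand family was followed through the mammary cycle in glands of Brca1 mutant and control mice. Its members were taken as every gene on the array whose probe set carries a single symbol beginning with Ccl, Cxcl, Cx3cl or Xcl and a digit, with 1 probe set per gene, the one with the highest mean log2 signal. This gave 33 of the 18194 genes with a single symbol. Ccl19, the Ccl21 genes and Ccl27b have only probe sets shared between several symbols and are not members. Total RNA of whole mammary glands was hybridised, with 1 array for each of 6 females (129, FVB and Black Swiss mixed), as 1 pair of mutant and control at each of 3 stages. The virgin mutant, 6 months old, was Brca1 D11/D11 with 1 normal copy of p53, and the virgin control of the same age carried Brca1 D+/+ with the same p53+/- genotype. The lactating mutant and control had these same genotypes at 2 months of age and were taken on day 1 of lactation. The pregnant pair, 5 months old and at day 16.5 of pregnancy, differed in design. Its mutant was Brca1 co/co with MMTV-Cre and its control Brca1 +/co with MMTV-Cre, so both carried the Cre recombinase gene and a co allele. The mouse mammary tumour virus promoter drives Cre mainly in mammary epithelium, so other cells of that mutant gland need not have lost the gene. The series' design text gives all mutants the D11 genotype, and the sample labels were followed.

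Chemokines are small secreted or membrane-anchored proteins that guide leukocytes along concentration gradients by binding G protein-coupled receptors. CC and CXC chemokines are named for the spacing of their first cysteines. Inflammatory members are induced in activated cells, commonly through NF-kB or interferon signalling, while homeostatic members are made constantly by stroma or epithelium and place lymphocytes in lymph nodes, gut, skin and glands. In the lactating mammary gland the epithelial chemokine Ccl28 is known for drawing antibody-secreting cells that carry its receptor Ccr10, which supply the antibodies of milk.

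The upstream sequences of 6 members that changed between stages are shown as examples. From virgin to pregnant glands, on the probe sets used, Ccl28 and Cxcl1 rose, Cxcl9, Cxcl12 and Cxcl13 fell and Cxcl14 was not called. From pregnant to lactating glands Ccl28, Cxcl14 and, on the probe sets used, Cxcl1 and Cxcl13 rose, Cxcl12 fell and Cxcl9 was not called. Each is the 250 bases before the gene's start in RefSeq's promoter table (GRCm38.p6), 5′ to 3′ on the gene's strand. Capitals mark matches to 3 patterns searched on both strands: GGGA and CC with any 4 bases between them for NF-kB (kappaB), TTC and GAA with any 3 bases between them for STAT factors (GAS), and GAAA and GAAA with any 2 bases between them for interferon response (ISRE-like). The match in Cxcl14 nearer the start of the line is GAS and the other is ISRE-like, and all matches in the other sequences are kappaB.
Ccl28, chr13:119623569-119623818, plus strand: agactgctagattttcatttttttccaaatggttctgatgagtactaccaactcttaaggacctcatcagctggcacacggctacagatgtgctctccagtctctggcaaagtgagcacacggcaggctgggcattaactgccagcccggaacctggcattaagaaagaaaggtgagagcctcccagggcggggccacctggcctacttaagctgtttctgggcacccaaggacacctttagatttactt
Cxcl14, chr13:56296552-56296801, minus strand: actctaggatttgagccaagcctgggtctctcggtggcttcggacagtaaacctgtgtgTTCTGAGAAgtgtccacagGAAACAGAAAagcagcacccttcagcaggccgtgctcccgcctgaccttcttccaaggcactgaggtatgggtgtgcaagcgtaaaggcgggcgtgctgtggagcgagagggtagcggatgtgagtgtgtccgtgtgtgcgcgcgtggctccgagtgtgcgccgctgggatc
Cxcl1, chr5:90890995-90891244, plus strand: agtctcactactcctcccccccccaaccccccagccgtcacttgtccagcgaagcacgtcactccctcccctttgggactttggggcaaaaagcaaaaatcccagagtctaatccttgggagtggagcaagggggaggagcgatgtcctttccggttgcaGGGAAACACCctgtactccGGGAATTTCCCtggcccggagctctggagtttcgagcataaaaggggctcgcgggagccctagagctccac
Cxcl9, chr5:92328080-92328329, minus strand: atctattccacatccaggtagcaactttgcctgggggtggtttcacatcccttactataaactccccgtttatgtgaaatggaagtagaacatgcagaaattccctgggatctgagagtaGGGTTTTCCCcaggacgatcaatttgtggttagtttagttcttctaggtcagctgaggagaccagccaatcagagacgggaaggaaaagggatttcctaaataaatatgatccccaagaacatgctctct
Cxcl12, chr6:117168285-117168534, plus strand: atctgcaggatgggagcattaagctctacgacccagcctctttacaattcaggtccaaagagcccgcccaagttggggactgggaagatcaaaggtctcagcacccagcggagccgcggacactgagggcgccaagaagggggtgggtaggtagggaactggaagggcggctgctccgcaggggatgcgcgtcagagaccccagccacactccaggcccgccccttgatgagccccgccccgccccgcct
Cxcl13, chr5:95956689-95956938, plus strand: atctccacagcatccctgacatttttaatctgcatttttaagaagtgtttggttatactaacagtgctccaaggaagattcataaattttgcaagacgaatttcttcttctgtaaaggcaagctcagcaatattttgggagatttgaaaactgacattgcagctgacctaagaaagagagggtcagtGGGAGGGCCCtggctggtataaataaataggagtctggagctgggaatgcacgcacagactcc
Cxcl1 has 2 stretches of kappaB matches, one of which matches on both strands in overlapping positions. A kappaB match was present in 17.6% of all 32851 windows of this length, a GAS match in 7.02% and an ISRE-like match in 2.98%. Of the members, 23 have a window in the table. A kappaB match was found for 10 of them, a GAS match for 2 (Ccl17 and Cxcl14) and an ISRE-like match for 2 (Cxcl10 and Cxcl14). These counts are per gene, over all windows of a gene, while the shares above are per window. Ccl25 and Ccl27a have several windows. Ccl6, Ccl8, Cxcl15 and Cx3cl1, also called between stages, have windows without a match to any of these patterns and are not shown. Matches to different patterns did not overlap in the members' windows. No match says only that these letters are absent from this window.

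All arrays had a 2%-trimmed mean of 500 in the deposited values. Median signals were 120 to 158 on the virgin and pregnant arrays and 211 and 231 on the lactating ones, which also carry another array date. Stage therefore cannot be told apart from array date and age between lactating and virgin glands, which share their genotypes. It cannot be told apart from genotype and age between pregnant and virgin glands, nor from all of these between lactating and pregnant ones. The ratio of 3' to 5' signal, which rises as RNA degrades, reached 3.50 for Gapdh in the virgin control against 0.73 to 1.52 on the other 5 arrays. The 1.52 was that of the virgin mutant, with 0.73 to 1.20 on the pregnant and lactating arrays. For actin the ratio was 2.74 and 2.03 in the virgin control and its mutant, against 1.37 to 1.91 on the pregnant and lactating arrays. Both virgin arrays were thus highest on both controls. Stage cannot be told apart from RNA quality either in comparisons with virgin glands. For Brca1 itself the mutant read 288 against 159 in pregnancy, 486.5 against 137 in the virgin and 157 against 238 in lactation. Where its probe set lies relative to the deleted part is not given, so it does not check the mutation. All 10 luminal and milk genes listed as tissue markers passed the filter on dim genes.

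Dim signals limited what could be tested. Probe sets of Y-linked genes, which should be dark in female mice, had a median signal of 33.6, 95% of their values below 260.4 and a highest value of 483.5. Genes with a mean log2(signal + 52.1) under 7.718, which is the median over probe sets, were left out. This kept 19 of 33 members and 11570 genes in all, 57.6% of the family against 63.6% of all genes. Among the 19, 13 stood above that level at every stage and 6 (Ccl4, Ccl11, Ccl17, Ccl24, Cxcl15 and Cxcl17) passed through their brighter stages. Counts over the 19 are therefore a description and not support for a change of the family. Ratios are on the log2(signal + 52.1) scale, which understates the change of dim genes. Nothing in the labels says how the mice of a stage were related, and each stage and genotype is a single mouse.

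Many chemokine signals differed between the stages, some higher and some lower. From virgin to pregnant glands 8 of the 19 tested members fell and 2 rose at an adjusted p under 0.05 (limma, 2 arrays per stage), where 14.4% of all tested genes were called. The median log2 ratio was -0.54 over the 19 members and -0.06 over all tested genes. From pregnant to lactating glands 7 rose and 3 fell, where 32.0% of all genes were called, with medians of 0.09 and -0.03; the member median was -0.13 after quantile normalization and -0.33 after median centring. Between lactating and virgin glands 4 members were higher and 8 lower in lactation, against 52.0% of all genes called, with medians of -0.64 and -0.10. The comparisons share arrays and are not independent. With each array centred on its median, the split was 4 higher and 3 lower for lactating against pregnant glands. For lactating against virgin glands it was 3 higher and 10 lower. Under that scaling 4601 and 7046 of all 11570 tested genes were called in these comparisons, with 17.0% and 18.7% of those calls higher. The epithelial chemokines Ccl28 and Cxcl17 and, on the probe set used, the neutrophil attractant Cxcl1 stood at the top of the order in lactation. At the bottom were the myeloid chemokine Ccl6, the eotaxin Ccl11 and the stromal chemokine Cxcl12.

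How many calls between pregnant and virgin glands were kept depended on which array was left out. Such a fit has a single array at the stage concerned, which weakens the test of every gene. A lost call therefore cannot show that it rested on the array left out. Without the pregnant control, and likewise without the virgin control, 3 of the 10 calls were kept, those of Cxcl9, Cxcl12 and Cxcl13. The other 7 kept their sign, with limma adjusted p of 0.0518 to 0.315 and 0.0524 to 0.351. Without the pregnant mutant Ccl6, Cxcl1 and Cxcl15 missed the threshold too (0.0727, 0.0761 and 0.0573), as did Cxcl15 without the virgin mutant (0.0936). Between lactating and pregnant glands 5 calls were kept without the pregnant control (Ccl6, Ccl11, Ccl28, Cxcl12 and Cxcl17) and 4 without the pregnant mutant (Ccl6, Ccl11, Ccl28 and Cxcl14). Cxcl1, Cxcl13 and Cx3cl1 were not called without the lactating control (limma adjusted p = 0.132, 0.2435 and 0.1465).

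**Figure D1:**
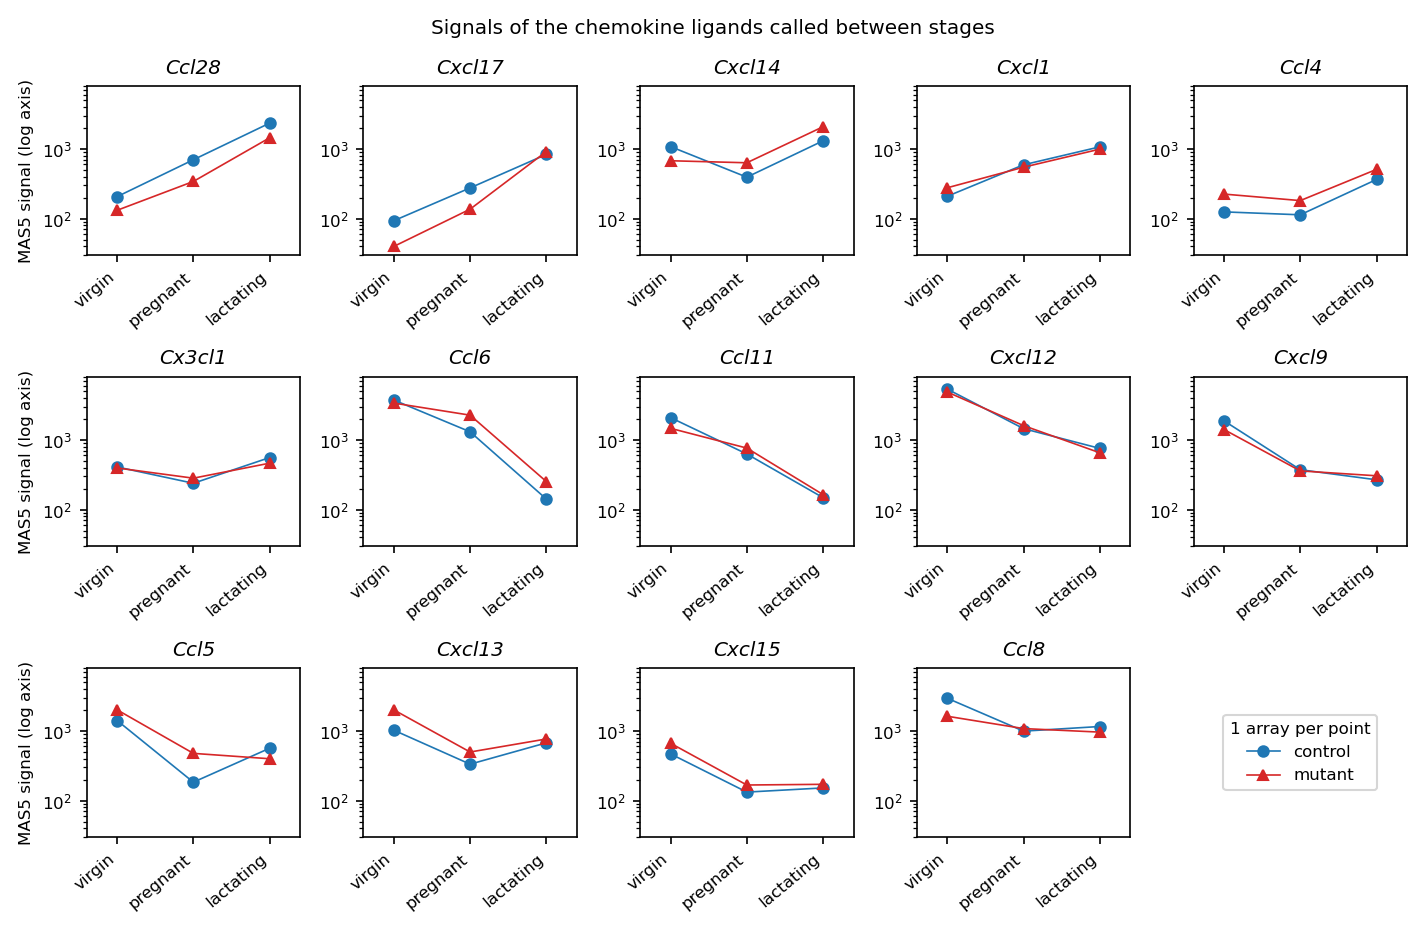
MAS5 signals (log axis) of the 14 chemokine ligands called between any stages, by stage, with circles for the control and triangles for the mutant mouse, 1 array per point. Ccl28 climbs from 132 and 207 in the virgin to 1443 and 2345 in the lactating glands, while Cxcl12 goes from 4867 and 5363 to 655 and 757.

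**Figure D2:**
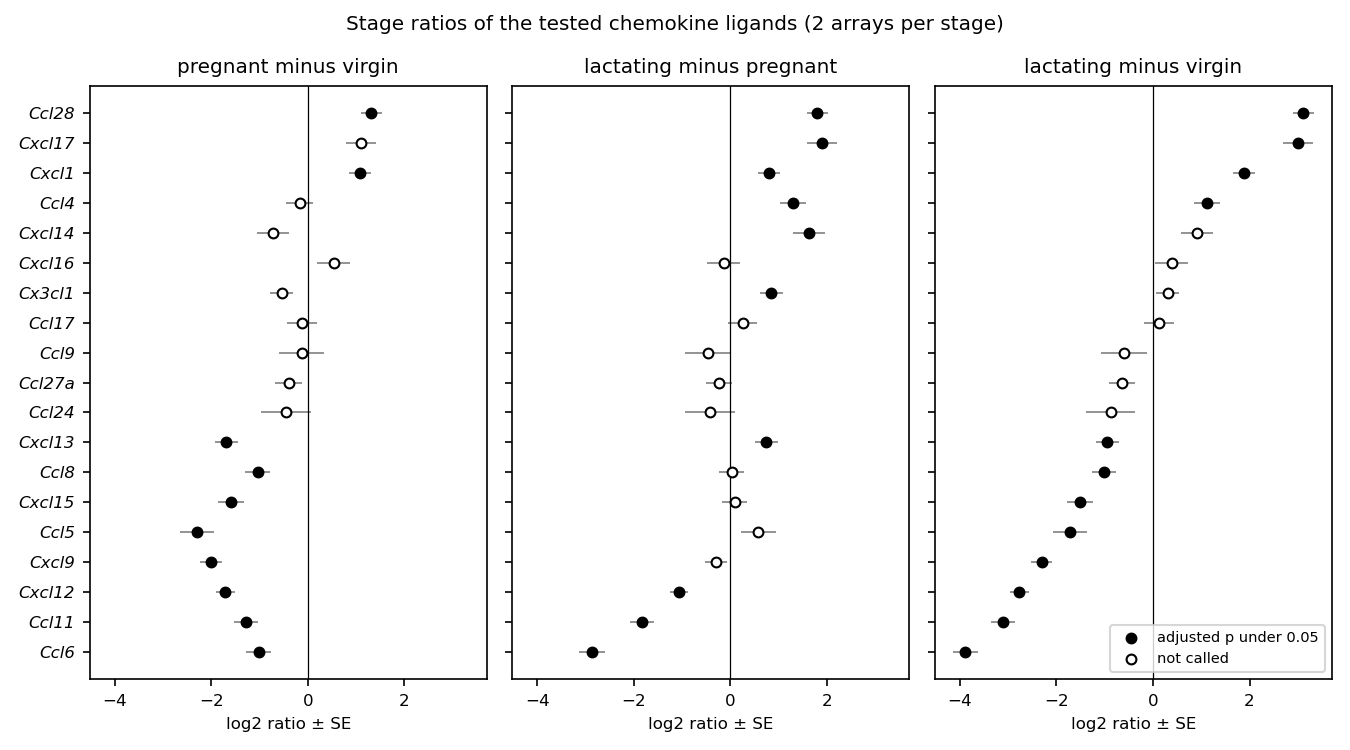
Log2 ratios with standard errors of the 19 tested members in the 3 stage comparisons, ordered by lactating minus virgin; filled points have an adjusted p under 0.05. The order runs from Ccl6 at -3.89 to Ccl28 at 3.12.

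Among chemokines of mucosal and skin epithelium, Ccl28 and Cxcl17 were the members that rose furthest. Ccl28 read 207 and 132 in the virgin control and its mutant, 699.9 and 342 in the pregnant and 2345 and 1443 in the lactating pair. The lowest pregnant signal was above both virgin ones and the lowest lactating signal above both pregnant ones. Its log2 ratio was 1.32 ± 0.22 (SE, n = 2 arrays per stage; limma adjusted p = 0.0107) for pregnant against virgin, 1.80 ± 0.22 (0.00318) for lactating against pregnant and 3.12 ± 0.22 (0.000122) for lactating against virgin glands. The last is an 8.67-fold difference. Both virgin signals lay within the range of Y-linked probe sets, and the log2 ratio of lactating to virgin was 2.58 with a pseudocount of 168.7 in place of 52.1 and 3.36 with 14.9. The gene's other 2 probe sets were dim, at 21.2 to 199, and also brightest in lactation. With the mean of all 3 the pregnant call was lost (0.0757).

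The receptor of Ccl28, Ccr10, read 27.4 to 153 on the 6 arrays and was not tested. Of 5 tested plasma cell genes 2 were higher and 2 lower in lactating than in virgin glands, where 52.0% of all genes were called. The transcription factors Xbp1 and Prdm1, also used outside plasma cells, were the higher ones (1.46 ± 0.21 and 0.99 ± 0.33, SE; limma adjusted p = 0.00124 and 0.0399). The other lower one was the B cell coactivator Pou2af1 (-2.73 ± 0.33, 0.000674). Jchain, which joins antibody chains in plasma cells, was lower in lactating than in virgin glands (-2.79 ± 0.37, SE; limma adjusted p = 0.00102), with 4194 and 4035 in the virgin control and its mutant, 1536 and 2766 in the pregnant pair and 788 and 381 in the lactating pair.

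Cxcl17, a chemokine of mucosal surfaces, read 93.5 and 40 in the virgin control and its mutant, 276 and 137 in the pregnant and 835 and 918 in the lactating pair. Both lactating signals were above all others and beyond the Y-linked range, and both virgin signals were below all others. The virgin and pregnant signals lay within that range. The rise from pregnancy to lactation was 1.90 ± 0.32 (SE; limma adjusted p = 0.00648) and lactating glands were 8.01-fold higher than virgin ones (0.000444). The virgin to pregnant ratio of 1.10 ± 0.32 was not called (0.0583). Without the pregnant mutant the ratio of lactating to pregnant was 1.63 and just missed the threshold (0.0503).

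Cxcl14, a chemokine of skin and other epithelia, read 1079 and 677 in the virgin control and its mutant, 394 and 633.5 in the pregnant and 1308 and 2083 in the lactating glands. The rise from pregnancy to lactation was 1.62 ± 0.33 (SE; limma adjusted p = 0.0117). Without the pregnant control it was 1.32 and not called (0.0753). Lactating and virgin glands differed by 0.91 ± 0.33, just past the threshold (0.0502). A second probe set of the gene stayed between 325 and 532 on all arrays, with a log2 ratio of 0.31 for lactating against pregnant glands.

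Other epithelial members did not pass. Ccl27a, which draws T cells to skin, read 167 to 343, with no stage call and a lowest limma adjusted p of 0.0852. Its probe set is of a type prone to cross-hybridisation, and other probe sets for it are shared with Ccl27b. Ccl25, known from thymus and gut, and Ccl20, which attracts cells that bear Ccr6, were too dim to test, at 95.3 to 231 and 15.0 to 251.

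Of the neutrophil attractants that act on Cxcr2, Cxcl1 rose through the cycle on the probe set used. It read 210 and 278 in the virgin control and its mutant, 593 and 547.5 in the pregnant and 1072 and 994 in the lactating pair. The stages did not overlap. The log2 ratio was 1.08 ± 0.23 (SE; limma adjusted p = 0.0215) for pregnant against virgin, 0.80 ± 0.23 (0.0325) for lactating against pregnant and 1.88 ± 0.23 (0.000673) for lactating against virgin glands. After median centring the ratio of lactating to pregnant was 0.39 and not called (0.207). A second probe set followed the same course, at 231 to 269, 378 to 439 and 1149 to 1251, with a pregnant to virgin ratio of 0.61 that was not called (0.107 when it stood for the gene). The probe set used and this second one are both of types prone to cross-hybridisation. The remaining one is not of such a type and did not follow that course. It read 164 and 124 in the virgin control and its mutant, 304 and 107 in the pregnant and 15.6 and 84.3 in the lactating pair. Its ratios were -1.31 for lactating against pregnant and -1.02 for lactating against virgin glands. With the mean of the 3 probe sets neither pregnant against virgin (0.66, adjusted p = 0.115) nor lactating against pregnant (0.31, adjusted p = 0.344) was called.

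Of 5 tested neutrophil genes 2 were higher and 2 lower in lactating than in virgin glands, where 52.0% of all genes were called. After median centring 1 was higher and 2 lower. The granule gene Ngp was higher (1.32 ± 0.28, SE; limma adjusted p = 0.00632), as was Ltf (3.97 ± 0.66, 0.0023), while S100a8 and S100a9 were lower (-2.52 ± 0.33, 0.000964, and -2.42 ± 0.35, 0.00135), and Csf3r was not called (0.61 ± 0.49, 0.325). S100a8 read 462 and 723 in the virgin control and its mutant, 228 and 229.8 in the pregnant and 76.8 and 42.5 in the lactating pair, and the receptor Cxcr2 was dim, at 5.1 to 118. The neutrophil list as a whole had summed signals of 2321 and 3285 in virgin, 3007 and 10760 in pregnant and 14747 and 21613.5 in lactating glands, most of it from the milk protein gene Ltf, which read 758 to 19818.

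Cxcl15, an attractant of the same class known from mouse lung epithelium, went the other way. It read 468.5 and 665 in the virgin control and its mutant, 133 and 168 in the pregnant and 152 and 172 in the lactating pair. Both virgin signals stood above all others. It fell by 1.60 ± 0.27 (SE; limma adjusted p = 0.0109) from virgin to pregnant glands, and lactating glands were lower than virgin ones at -1.51 ± 0.27 (0.00299). A second, dimmer probe set had ratios of -1.89 and -1.51. Cxcl2, Cxcl3 and Cxcl5 were dim on every array, at 22 to 111, 1.7 to 41.7 and 10.2 to 93.2, and were not tested.

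Both tested homeostatic chemokines of lymphoid tissue, of 7 listed, fell from virgin to pregnant glands, and 1 rose and 1 fell from pregnant to lactating glands. Cxcl12, which stromal cells make and which binds Cxcr4, read 5363 and 4867 in the virgin control and its mutant, 1453 and 1606 in the pregnant and 757 and 655 in the lactating pair. The stages did not overlap, and both mice of a stage lay close together. It fell by 1.71 ± 0.19 (SE; limma adjusted p = 0.00364) from virgin to pregnant glands and by 1.06 ± 0.19 (0.0086) from pregnant to lactating glands, and lactating glands were 6.82-fold lower than virgin ones (log2 ratio -2.77, 0.000122). Without the pregnant mutant the second step was -0.91 (0.0888). A second bright probe set showed the same order, at 1379 to 1672, 822 to 847 and 368 to 380.2. The remaining one was dim, at 18.3 to 64.5, and with the mean of the 3 the virgin to pregnant ratio was -0.70 (0.0516). Its receptor gene Cxcr4 read 652 and 1190.3 in the virgin control and its mutant, 247 and 401 in the pregnant and 184 and 216 in the lactating pair, and fell by 1.35 ± 0.25 from virgin to pregnant glands (0.0157).

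Cxcl13, which draws B cells into follicles through Cxcr5, read 1024 and 2003 in the virgin control and its mutant, 334 and 499 in the pregnant and 675 and 767 in the lactating pair. Both virgin signals were the highest and both pregnant signals the lowest. It fell by 1.69 ± 0.24 (SE; limma adjusted p = 0.00651) from virgin to pregnant glands. The ratio of lactating to pregnant was 0.74 ± 0.24 (0.0491) and that of lactating to virgin -0.95 ± 0.24 (0.013). The first of these missed the threshold under 6 other settings with all arrays, at adjusted p of 0.058 to 0.286. The direction after pregnancy depended on the probe set. The gene's other probe set read 2772 and 3581 in the virgin control and its mutant, 265 and 331 in the pregnant and 202 and 88.9 in the lactating pair, with a ratio of -0.88 for lactating against pregnant glands (0.0699 when it stood for the gene) and -4.08 for lactating against virgin glands. With the mean of both the ratio of lactating to pregnant was -0.069 (0.861). The drop from virgin to pregnant glands was seen on both. On the probe set used, the lactating to virgin call was lost without the virgin mutant (-0.65, 0.1355) or the lactating mutant (-0.67, 0.0708).

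**Figure D3:**
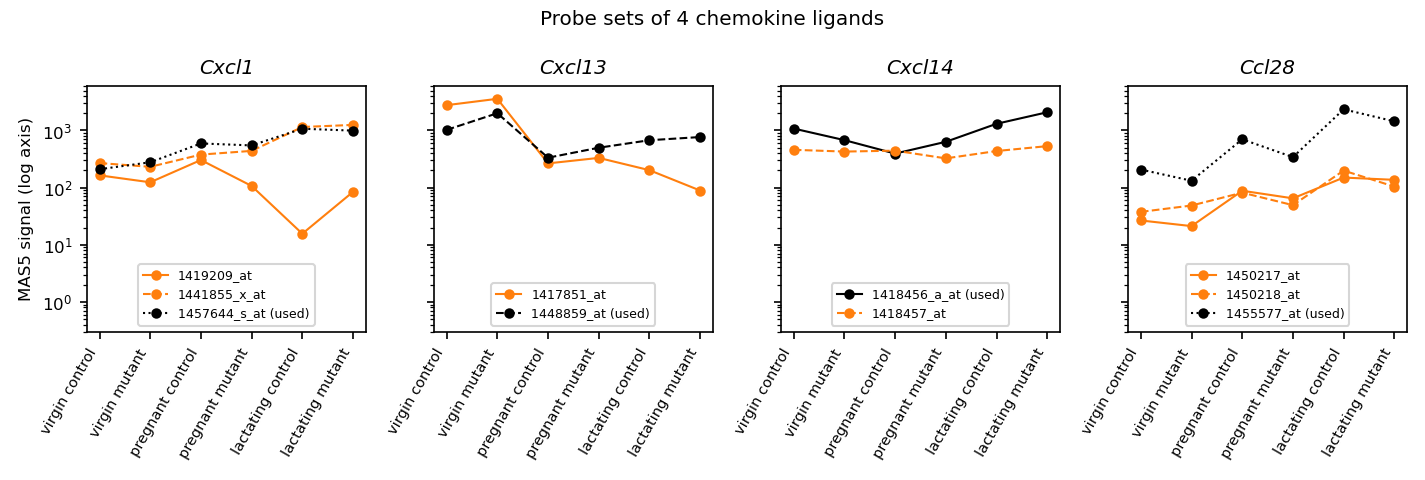
MAS5 signals (log axis) of every probe set of Cxcl1, Cxcl13, Cxcl14 and Ccl28 on the 6 arrays, with the probe set used in black and the others in orange. The 2 Cxcl13 probe sets part in the lactating glands, at 675 and 767 against 202 and 88.9, and 1 of 3 Cxcl1 probe sets goes against the other 2.

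Of the Cxcr3 ligands, which interferon gamma induces and which attract activated T cells, Cxcl9 was the only one bright enough to test. It read 1878 and 1409.5 in the virgin control and its mutant, 374 and 359.9 in the pregnant and 268 and 306 in the lactating pair. Both virgin signals were far above the other 4. It fell by 2.00 ± 0.23 (SE; limma adjusted p = 0.00364) from virgin to pregnant glands, 4.01-fold, and the ratio of lactating to pregnant was not called (-0.31 ± 0.23, 0.328). A second, dimmer probe set read 237 and 291 in the virgin control and its mutant, 119 and 60.4 in the pregnant and 220.1 and 147 in the lactating glands. Its ratios were -1.18 for pregnant against virgin, 0.75 for lactating against pregnant and -0.43 for lactating against virgin, where the probe set used gave -2.31. Cxcl10 read 182 and 254 in the virgin control and its mutant and 20.3 to 118 elsewhere. Cxcl11 was dim, at 17.1 to 194. Cxcr3 itself had ratios of -0.87 for pregnant against virgin (0.0602) and -0.70 for lactating against virgin glands (0.0522), neither called.

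Inflammatory CC ligands released by lymphocytes and myeloid cells split. Ccl5, which T cells and natural killer cells release, read 1412 and 2008 in the virgin control and its mutant, 184 and 477 in the pregnant and 564.5 and 399 in the lactating pair, with both virgin signals above the rest. It fell by 2.30 ± 0.36 (SE; limma adjusted p = 0.00856) from virgin to pregnant glands and was lower in lactating than in virgin glands at -1.72 ± 0.36 (0.00587). Ccl6, a myeloid chemokine of rodents, read 3735 and 3380.0 in the virgin control and its mutant, 1309 and 2268 in the pregnant and 142 and 253 in the lactating pair. The stages did not overlap. The fall from pregnancy to lactation was 2.87 ± 0.26 on the log2 scale (a ratio of -2.87, 0.00135), and lactating glands were 14.8-fold lower than virgin ones (-3.89, 0.000112). The smaller step from virgin to pregnant glands (-1.02 ± 0.26, 0.0411) missed the threshold under 6 of the other settings with all arrays, at adjusted p up to 0.072. Both lactating Ccl6 signals lay within the range of Y-linked probe sets, so the size of the 14.8-fold difference depends on the pseudocount. A second Ccl6 probe set fell less, with a lactating to virgin ratio of -2.06.

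Ccl4, made by activated macrophages and T cells, read 125 and 225 in the virgin control and its mutant, 114 and 182 in the pregnant and 365 and 509 in the lactating pair. Both lactating signals were above the rest. It rose by 1.30 ± 0.27 (SE; limma adjusted p = 0.0132) from pregnant to lactating glands and was 1.13 ± 0.27 higher in lactating than in virgin glands (0.011). The first call was lost without either pregnant array (0.0719 and 0.0889) and the second without either virgin array (0.0549 and 0.0896) or after median centring (0.54, 0.119). Its partner Ccl3 was dark to dim, at 10 to 63.4. Ccl9, related to Ccl6, was bright on every array, at 1235 to 3888, with no stage call (lowest limma adjusted p = 0.3165).

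Among monocyte attractants and their relatives Ccl8 was the bright member. It read 2942 and 1625 in the virgin control and its mutant, 994 and 1082 in the pregnant and 1158 and 962 in the lactating pair. Both virgin signals were the highest. It fell by 1.04 ± 0.25 (SE; limma adjusted p = 0.0362) from virgin to pregnant glands, and lactating glands were lower than virgin ones at -1.02 ± 0.25 (0.0127). Without the virgin control the second ratio was -0.63 (0.145), and after quantile normalization the first was -0.94 (0.0622); with no variance trend its adjusted p was 0.0555. Ccl2, the main attractant of Ccr2-bearing monocytes, stayed at 106 to 239, and Ccl7 at 67.5 to 149. Ccl12, a mouse relative of Ccl2, read 208 and 196 in the virgin control and its mutant, 117 and 91.1 in the pregnant pair and 6.4 and 9.4 in the lactating pair. All of these were too dim to test.

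Of ligands for Ccr3 and Ccr4, Ccl11, which attracts eosinophils, fell at each step. It read 2089 and 1467.5 in the virgin control and its mutant, 629 and 764 in the pregnant and 149 and 165 in the lactating pair. The stages did not overlap. It fell by 1.27 ± 0.25 (SE; limma adjusted p = 0.0178) from virgin to pregnant and by 1.84 ± 0.25 (0.00381) from pregnant to lactating glands, and lactating glands were 8.65-fold lower than virgin ones (-3.11, 0.000182). Both lactating Ccl11 signals lay within the range of Y-linked probe sets, so the size of that fold depends on the pseudocount. Ccl17 and Ccl24 read 110.4 to 220.4 and 83.6 to 449 and were not called in any stage comparison, with a lowest limma adjusted p of 0.187. Ccl22, a second Ccr4 ligand made by dendritic cells, was not tested and read 279 and 439 in the virgin control and its mutant against 22 to 80.7 on the other 4 arrays.

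Of the membrane-anchored chemokines 1 was called between stages. Cx3cl1, an adhesion molecule and attractant for Cx3cr1-bearing myeloid cells, read 409.8 and 396 in the virgin control and its mutant, 239 and 283 in the pregnant and 558 and 464 in the lactating pair. The ratio of lactating to pregnant, 0.85 ± 0.24 (SE; limma adjusted p = 0.0328), was lost after quantile normalization (0.0598), after median centring (0.43, 0.185), without the filter on dim genes (0.0516) and without either pregnant array (0.223 and 0.0939) or the virgin control (0.0511). Its other 3 probe sets read 3.4 to 234 and did not follow one course. Cxcl16, a ligand of Cxcr6 and a scavenger receptor, read 514 to 1282 with no stage call (lowest limma adjusted p = 0.3365). The lymphocyte products Xcl1 and Ccl1 read 7.7 to 121 and 29.4 to 166 and were not tested.

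How many chemokine receptors were called between stages depended on scaling. Of 16 receptor genes on the array 8 were tested. From virgin to pregnant glands 2 fell, Cxcr4 and the Cxcl16 receptor Cxcr6 (-1.12 ± 0.29, limma adjusted p = 0.0413), where 14.4% of all genes were called. After median centring 3 fell. From pregnant to lactating glands 0 of 8 were called, and 1 was lower under either rescaling, where 32.0% of all genes were called. Between lactating and virgin glands Cxcr4 was lower (-1.89 ± 0.25, 0.000979) and Cx3cr1 higher (0.91 ± 0.32, 0.0454), where 52.0% of all genes were called. That split depends on scaling, with 0 higher and 4 lower after quantile normalization and 0 higher and 5 lower after median centring. Of 3 tested atypical receptors, which bind chemokines without classical signalling, the Cxcl12 scavenger Ackr3 was lower in lactating than in virgin glands (-1.04 ± 0.29, 0.0204).

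Of 12 tested genes on a list of NF-kB feedback and inflammatory cytokines, 8 fell and 0 rose from pregnant to lactating glands, where 32.0% of all genes were called. Their median was -1.34 against -0.03 over all genes. Among those that fell were the inhibitor Nfkbie (-3.46 ± 0.25, limma adjusted p = 0.000805), the subunits Relb (-2.62 ± 0.29, 0.00234) and Nfkb2 (-2.19 ± 0.42, 0.00977), and the adhesion molecules Vcam1 (-2.25 ± 0.25, 0.00227) and Icam1 (-2.11 ± 0.23, 0.00234). Not called were the inhibitors Nfkbia (-0.26) and Nfkbiz (-0.11) and the tested cytokines Il1b (0.47) and Csf1 (0.27). From virgin to pregnant glands 1 of 12 fell, Vcam1 at -1.60 ± 0.25 (0.00839), where 14.4% of all genes were called. Cxcl1, whose upstream window holds kappaB matches, had a lactating to pregnant ratio of 0.80 on the probe set used. Its other probe sets had ratios of 1.44 and -1.31. A link between Cxcl1 and the genes on this list was not tested. The cytokine genes Tnf, Il1a, Il6 and Csf3 were too dim to test.

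Cell type markers moved with the same stages. Fewer cells of a type and less RNA per cell cannot be told apart in whole glands. Summed signals of 12 T cell genes were 6200 to 7775 in virgin, 2201 to 2209 in pregnant and 2744 to 2991 in lactating glands. From virgin to pregnant glands 6 of 9 tested T cell genes and 7 of 8 B cell genes fell and 0 rose, against 14.4% of all genes called. From pregnant to lactating glands 2 T cell genes (Cd5 and Cd8a) and 4 B cell genes rose and 1 T cell gene, Cd3d, fell, against 32.0% of all genes called. Between lactating and virgin glands 6 of 9 tested T cell genes were lower and 2 higher in lactation, against 52.0% of all genes called. After median centring 7 were lower and 0 higher. The higher ones were Cd8a (1.15 ± 0.26, SE, limma adjusted p = 0.00827) and Zap70 (0.91 ± 0.24, 0.0155). Among the lower ones, the T cell receptor gene Cd3d read 20.1 and 35.7 in lactation, near the median of Y-linked probe sets. Sums of 9 B cell genes were 4311 to 6381, 882 to 1623 and 2355.5 to 2545 in the same order. Fibroblast genes fell at each step, with sums of 151409 to 156925, 80908 to 94582.5 and 16186 to 24349, and 5 of 10 called lower in pregnant than in virgin and 9 of 10 lower in lactating than in pregnant glands. Macrophage sums were 42700.3 to 46868, 28232 to 32389 and 18169 to 23604, with 8 of 12 genes lower and 2 higher from pregnancy to lactation, beside the same 32.0% of all genes. Luminal and milk genes had sums of 120390.4 to 146314, 197628 to 269600.1 and 278797 to 330881.5. Within them the milk protein gene Lalba read 2975 and 1463.5 in the pregnant control and its mutant and 43159 and 58796 in the lactating pair. Lalba was the 1 of 10 of these genes called from pregnancy to lactation, against 32.0% of all genes. Skeletal muscle sums were 15343 and 45432 in the virgin mutant and control, 166573 to 191104 in pregnant and 81883.5 to 90325 in lactating glands. The part of any of these in the chemokine signals was not tested.

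Neighbouring members did not all move alike. In the gene order of the GRCm38.p6 RefSeq table, 6 members lie side by side on chromosome 11 (Ccl2, Ccl7, Ccl11, Ccl12, Ccl8 and Ccl1), 5 more lie together on the same chromosome (Ccl5, Ccl9, Ccl6, Ccl3 and Ccl4), and 5 lie on chromosome 5 (Cxcl5, Cxcl3, Cxcl15, Cxcl1 and Cxcl2). In the second group Ccl6 fell and Ccl4 rose from pregnancy to lactation while Ccl9 was not called. In the third Cxcl15 fell and, on the probe set used, Cxcl1 rose from virgin to pregnant glands. The Cxcl1 rise was not called with the mean of its probe sets.

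Between mutant and control, 0 of 19 members passed, as 0% of all 11570 tested genes did (limma with stage as a block, lowest adjusted p = 0.943). Before adjustment, 3 members and 545 of all genes had a p under 0.05. The median log2 ratio was -0.03 over the 19 members and 0.03 over all genes. By pair the member medians were -0.14 in the virgin, 0.25 in the pregnant and 0.16 in the lactating glands, against 0.02, 0.02 and 0.04 for all genes. Without the virgin pair the member median was 0.19. No tested ligand was called by Brca1 genotype, and with 3 pairs of unlike design a p above the threshold does not show that there was none.

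The same sign in all 3 pairs was seen for 6 of 19 members, 5 higher and 1 lower in the mutant, where 25.7% of all tested genes had the same sign. Ccl28 was the member lower in every mutant, at 132 against 207 in the virgin, 342 against 699.9 in the pregnant and 1443 against 2345 in the lactating pair. Its log2 ratios were -0.49, -0.93 and -0.68, with a mean of -0.70 ± 0.18 (SE, n = 3 pairs; limma unadjusted p = 0.00491, adjusted p = 0.943). With the mean of its probe sets the ratio was -0.39. Higher in every mutant were Cxcl13 at 0.54 ± 0.20, Ccl17 at 0.53 ± 0.25, Ccl4 at 0.52 ± 0.22, Ccl27a at 0.33 ± 0.22 and Cxcl15 at 0.28 ± 0.22 (SE; limma adjusted p = 0.943 for each). Cxcl13 and Ccl4 had unadjusted p of 0.026 and 0.0483. The other Cxcl13 probe set, in place of the one used, gave a ratio of -0.071. Ccl4 read 225 against 125 in the virgin, 182 against 114 in the pregnant and 509 against 365 in the lactating pair. Ccl17, a Ccr4 ligand, read 210.1 against 121.5, 184 against 110.4 and 220.4 against 148. All Ccl17 signals lay within the range of Y-linked probe sets.

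**Figure D4:**
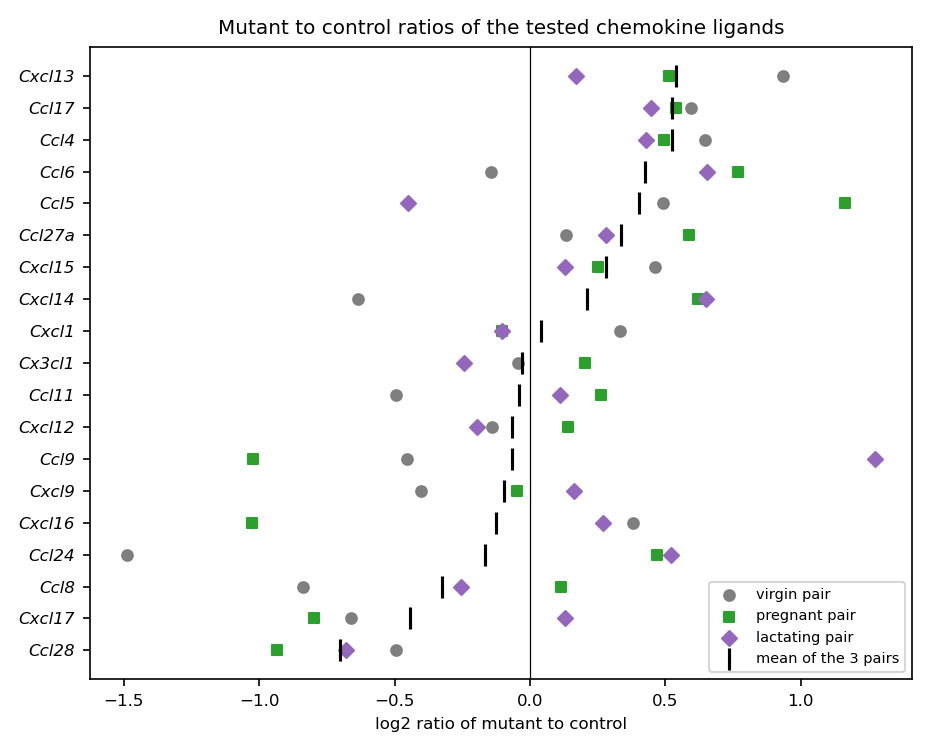
Log2 ratio of mutant to control for the 19 tested members in the virgin (circles), pregnant (squares) and lactating (diamonds) pair, with a bar at the mean of the 3. Ccl28 lies below 0 in all 3 pairs, and Ccl9 runs from -1.02 in the pregnant to 1.27 in the lactating pair.

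Differences of at least 2-fold within a pair are given as values, since a pair has no replicate. They were seen for 1 of 19 members in the virgin, 3 in the pregnant pair and 1 in the lactating one, against 2.67%, 2.00% and 6.27% of all tested genes. In the virgin pair Ccl24, an attractant of eosinophils, read 449 in the control and 126.5 in the mutant (log2 ratio -1.49). In the pregnant pair Ccl5 read 184 in the control and 477 in the mutant (1.16), Ccl9 3888 and 1887 (-1.02), and Cxcl16 1281.5 and 603 (-1.03). A second Ccl9 probe set, at 2625.5 and 1050.0, and a second Cxcl16 probe set, at 784 and 506.5, were also lower in this mutant. In the lactating pair Ccl9 was the other way round, at 1235 in the control and 3058 in the mutant (1.27), and its second probe set read 514 and 1126. Among members too dim to test, Ccl20 read 251 in the pregnant control and 38.9 in its mutant, Cxcl10 20.3 and 118, and in the lactating pair Cxcl11 read 194 in the control and 46.2 in the mutant and Cxcl5 10.2 and 93.2.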

How the data were processed

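The authors deposited a linear MAS5 intensity for every probe set and array. MAS5 is named per the submitters' processing notes, with its version not given in the sources used. The array precision is limited by the number of arrays. Of 45101 probe sets, 64 are array controls, 34945 carry 1 gene symbol, 932 several and 9160 are unnamed here; only those with 1 symbol were used. Signals were turned into log2(signal + 52.1), 52.1 being the 25th percentile of all values. Mutant was compared with control in limma 3.58.1 under R 4.3.3, using eBayes and a mean-variance trend, with stage as a block, and stages in a model with genotype as a term, with 2 degrees of freedom left and 5.507 added by the prior. P-values were adjusted over all tested genes (Benjamini-Hochberg), and an adjusted p under 0.05 was called. The pairs are those of a shared stage in the sample labels, and deviations from genotype means correlated within each pair (r = 0.585 to 0.855 across genes). Each pair is 1 stage, so this correlation contains the stage differences and cannot tell whether the mice were paired. Members, gene lists, tests and alternatives were chosen with earlier results of these data known. Members called between stages, with one sign in all pairs or 2-fold apart within a pair are given in full, the others by range. Alternatives covered scaling, pseudocount, filter, probe set choice, variance trend, block and arrays left out; choosing the probe set by mean signal was chosen after the data were seen. The fit was first tested on simulated data. Figures were drawn with matplotlib 3.10.9.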

Additional observations from a re-analysis of the deposited data

Results flagged for a closer look

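Probe sets with several gene symbols, outside all comparisons above, held chemokine signal beyond the highest Y-linked value of 483.5. One whose 9 symbols include Ccl21a, Ccl21b, Ccl21c and Ccl21d had its highest signal, 3012.8, in the virgin mutant, with 1554 in its control. The pregnant control read 157 and its mutant 514, and the lactating control 26.2 and its mutant 21.7. One whose 10 symbols include Ccl19 had its highest signal, 1415.8, in the virgin mutant, with 968 in the virgin control, 170.3 and 190.2 in the pregnant pair and 38.7 and 35.0 in the lactating pair. Both were highest in virgin and lowest in lactating glands, with log2 ratios of lactating to virgin of -4.87 and -3.78, given without a test. Ccr7, the receptor that Ccl19 and Ccl21 share, was too dim to test and read 360.3 and 699.5 in the virgin control and its mutant against 8.5 to 55.2 on the other 4 arrays. The probe sets cannot say which of their genes gave the signal.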

How the results depend on the processing

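Of the ratios of called or same-sign members, 126 of 127 for lactating against virgin, 92 of 105 for lactating against pregnant, 95 of 107 for pregnant against virgin and 59 of 60 for mutant against control kept their direction and side of the threshold under the settings that keep all arrays. Those that reversed among the ratios still tested were all of Cxcl13: lactating against pregnant with the mean of probe sets (-0.069) or the probe set of highest mean signal (-0.88), and mutant against control with the latter (-0.071). Where probe sets prone to cross-hybridisation were avoided, the remaining Cxcl1 probe set was too dim to test and is not counted. Its ratios had the opposite sign to those used, at -1.31 for lactating against pregnant and -1.02 for lactating against virgin glands. With the mean of probe sets 6 members in place of 10 were called between pregnant and virgin glands. A model without the other factor drops stage for mutant against control and genotype for the stage comparisons. It called 0, 9, 9 and 13 members for mutant against control, pregnant against virgin, lactating against pregnant and lactating against virgin. The main counts were 0, 10, 10 and 12, so dropping the other factor moved no count by over 1.5 times. With arrays left out these counts ran from 0 to 0, 3 to 11, 4 to 12 and 11 to 13, and those of all genes from 0 to 2, 307 to 2765, 1089 to 3588 and 3461 to 5665, in place of 0, 1661, 3697 and 6020. Without the lactating arrays, so with 1 array date, 11 members were called between pregnant and virgin glands. Median centring moved the median of all genes from -0.06 to -0.24, -0.03 to -0.44 and -0.10 to -0.69 in the 3 stage comparisons, and the share of calls that were higher from 44.4% to 26.7%, 47.3% to 17.0% and 45.8% to 18.7%. Signals within the Y-linked range limit what the 14 untested members can show.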

Other observations

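Without the filter on dim genes, 5 members that were otherwise not tested were called between stages. With the filter, 14.4% of all genes were called for pregnant against virgin, 32.0% for lactating against pregnant and 52.0% for lactating against virgin glands. The share without the filter is not given here, so the 5 calls describe single genes and not the family. Ccl22 fell from virgin to pregnant glands (log2 ratio -2.21 ± 0.35, SE; limma adjusted p = 0.0145) and was lower in lactating than in virgin glands (-1.71, 0.00766). Ccl12 was lower in lactating than in pregnant (-1.38 ± 0.31, 0.0215) and virgin glands (-2.08, 0.00231), and Xcl1, which attracts cross-presenting dendritic cells, was lower in lactating than in pregnant (-1.48 ± 0.29, 0.0143) and virgin glands (-0.88, 0.041). Cxcl10 was lower in lactating than in virgin glands (-1.04, 0.0459). Cxcl2, a close relative of Cxcl1, was higher in lactating than in virgin glands (0.96 ± 0.31, 0.0395), at 76.6 and 111 against 22.2 and 22, all within the Y-linked range. Ackr4, an atypical receptor that removes Ccl19, Ccl21 and Ccl25, was not tested and read 297 and 337 in the virgin control and its mutant, 85.5 and 106 in the pregnant pair and 21.5 and 24.2 in the lactating pair.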
